A study of Mus musculus with 8 samples.

Results

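The corticosteroid genes described here are 7 of the 38553 genes measured by RNA-Seq in the dorsal and ventral medial entorhinal cortex (MEC) of the mouse. They are Hsd11b1, the reductase that regenerates active corticosterone from its inert keto form, the glucocorticoid receptor Nr3c1, the mineralocorticoid receptor Nr3c2, and 4 genes that glucocorticoids are known to induce, Fkbp5, Sgk1, Tsc22d3 and Ddit4. Members were matched by gene symbol, and each matched 1 gene. Hsd11b1 was chosen by its dorsal excess in these same libraries, so its dorsoventral difference is described without a test, and the others were chosen as receptors and targets. Both groups came from the same 13 male C57BL/6JolaHsd mice aged 8 weeks, for which the labels give no treatment or allele, and differed in the region dissected from a sagittal slice of the right MEC. Each region gave 4 libraries, every one a pool of tissue from 3 or 4 mice, so p-values measure only how much such pools vary. The pools of both regions came from the same 4 groups of mice, but no label says which dorsal and ventral library share their mice, so the tests are unpaired and include the variation between groups of mice. Values are FPKM, fragment numbers corrected for exon length and library size, from cDNA amplified from 120 ng of RNA. In tissue of many cell types, fewer cells of a type and less RNA per cell cannot be told apart.

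Corticosterone, the main glucocorticoid of rodents, enters cells freely, and enzymes within the cell set how much of it is active. It binds the mineralocorticoid receptor with high affinity and the glucocorticoid receptor with lower affinity, and both receptors leave an Hsp90 chaperone complex, enter the nucleus and bind the same DNA element. In the forebrain, neurons and glia carry glucocorticoid receptor, whereas mineralocorticoid receptor is concentrated in neurons of limbic structures, the hippocampus above all.

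The regions of the libraries were taken from the deposited comparison table and not from the column headers. With 4 columns taken as dorsal and the other 4 as ventral, the means matched the authors' regional means within 0.1% for 13388 of 13400 genes, against 294 for the next best of the 70 possible splits and 138 for the split that the headers name. For 4 of the 8 libraries the header thus gives the opposite region. Libraries are numbered here by column order alone. Neuronal markers were abundant in all libraries (summed over 6 genes, 3640 to 5520 FPKM), as were 4 markers of entorhinal layers (146 to 176 FPKM), whereas choroid plexus markers summed to at most 1.40 FPKM, with Clic6, Folr1 and Ttr listed at 0 in some libraries.

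The glucocorticoid response element, which both receptors bind, consists of the half-site AGAACA, any 3 bases, and the half-site TGTTCT. Both strands were searched in the RefSeq promoters of 300 bases, 250 before and 50 after a transcription start, on GRCm38.p6. For the members, 13 promoters of 6 of the 7 genes were examined, among them 6 alternative promoters of Sgk1 and 3 of Tsc22d3. No promoter of Nr3c1 was included in these 13. Only 1 of the 13 held the element, a promoter of Sgk1 at chr10:21993640-21993939 on the plus strand, where it begins 189 bases before the start. The element was found in 3 of all 32851 promoters (0.00913%), and its core (ACA, any 3 bases, TGT, with G 2 bases before and C 2 bases after), which every full element also contains, in 156 (0.475%). The Sgk1 promoter is shown because it alone among the members' promoters holds the element, in capitals, and the promoter of Hsd11b1 (chr1:193242311-193242610, minus strand) because that gene has the largest dorsoventral ratio of the members. A match in the sequence is a description and was not tested as a binding site.
Sgk1: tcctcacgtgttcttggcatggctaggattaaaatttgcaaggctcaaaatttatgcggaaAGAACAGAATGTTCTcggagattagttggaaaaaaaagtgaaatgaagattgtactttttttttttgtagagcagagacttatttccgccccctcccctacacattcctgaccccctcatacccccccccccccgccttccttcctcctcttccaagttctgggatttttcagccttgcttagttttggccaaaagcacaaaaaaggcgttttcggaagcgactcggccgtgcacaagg
Hsd11b1: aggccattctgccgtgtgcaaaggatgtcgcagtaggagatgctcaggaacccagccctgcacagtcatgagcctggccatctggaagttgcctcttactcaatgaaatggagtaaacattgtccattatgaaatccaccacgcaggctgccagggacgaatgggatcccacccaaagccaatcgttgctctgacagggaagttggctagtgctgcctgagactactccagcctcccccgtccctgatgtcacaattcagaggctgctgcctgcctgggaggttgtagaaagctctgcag

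Among the members, levels of FPKM, which are per exon length and so can be set side by side, were highest for Sgk1, Nr3c1 and Tsc22d3 and lowest for Fkbp5 and Ddit4. In dorsal MEC the order of mean levels was Sgk1, Nr3c1, Tsc22d3, Hsd11b1, Nr3c2, Fkbp5 and Ddit4, from 22.7 to 2.03 FPKM. The dorsal libraries did not separate Sgk1 from Nr3c1, Tsc22d3 from Hsd11b1, or Fkbp5 from Ddit4, since their ranges overlapped. In ventral MEC Nr3c1 came first, followed by Sgk1, Tsc22d3, Hsd11b1, Nr3c2, Fkbp5 and Ddit4, from 18.8 to 2.17 FPKM. There the ranges of Nr3c1 and Sgk1, of Sgk1 and Tsc22d3, and of Fkbp5 and Ddit4 overlapped. The range of Hsd11b1 thus overlapped that of Tsc22d3 dorsally and lay below it ventrally. Dorsally Tsc22d3 was still the higher of the 2 in 3 of 4 libraries. This contrast includes the dorsal excess by which Hsd11b1 was chosen.

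**Figure D1:**
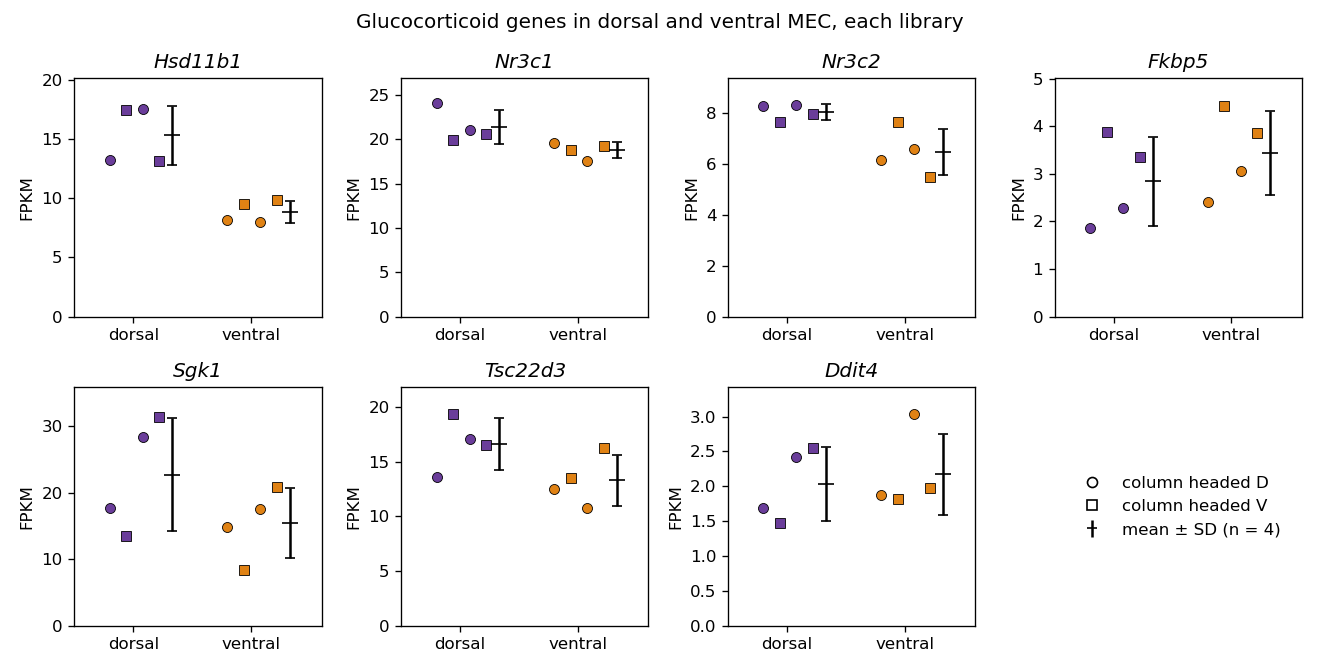
FPKM of the 7 members in each of the 4 dorsal and 4 ventral libraries, with the mean and SD of each region (n = 4) at the right of its points and a separate vertical axis per gene starting at 0. Circles are columns headed D and squares columns headed V: the dorsal and ventral points of Hsd11b1, Nr3c1 and Nr3c2 do not overlap, and in Fkbp5 the squares lie above the circles.

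Hsd11b1 (ENSMUSG00000016194, chr1:193221634-193264075, minus strand) was higher in dorsal MEC. The dorsal libraries held 13.2, 17.4, 17.5 and 13.1 FPKM and the ventral libraries 8.12, 9.48, 8.01 and 9.80 FPKM. The 2 groups did not overlap. In each region the libraries formed 2 pairs, over a range of 13.1 to 17.5 FPKM dorsally and 8.01 to 9.80 FPKM ventrally. The means were 15.3 ± 2.48 FPKM dorsally and 8.85 ± 0.917 FPKM ventrally (SD, n = 4), a 1.73-fold dorsal excess and a log2 ratio of ventral to dorsal of -0.79. With any 1 library left out, that ratio stayed between -0.86 and -0.72. With the regions that the headers name, which each mix dorsal and ventral libraries in equal number, it was 0.09. Since this excess chose the gene, no test of it is given.

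The genes whose log2(FPKM + 1) was most like that of Hsd11b1 over the 8 libraries were Qdpr, the enzyme that recycles tetrahydrobiopterin, with Pearson's r = 0.983, Tuba4a, a tubulin (0.981), Arhgap11a (0.979), Cldn11, a tight-junction protein of myelin (0.978), and Prr18 (0.978). All 5 were higher in each dorsal library than in any ventral library, as their likeness to Hsd11b1 made nearly certain. Over all tested genes, the regions did not overlap for 1521 (11.1%). Means were 27.3 against 17.2 FPKM for Qdpr, 132 against 110 FPKM for Tuba4a and 26.1 against 14.4 FPKM for Cldn11. After the mean of each region was taken away, the genes that followed Hsd11b1 most closely were Gpatch11 (0.988), Tmem120a (0.974), H2-Ke6 (0.957), Flii (0.956) and again Qdpr (0.947). Over the same 8 libraries the values of r between Hsd11b1 and other members were 0.82 for Tsc22d3, 0.70 for Nr3c2, 0.58 for Nr3c1, 0.37 for Sgk1, -0.16 for Fkbp5 and -0.27 for Ddit4. After the region means were taken away, Tsc22d3 still gave 0.77, whereas Nr3c2 gave -0.09 and Nr3c1 -0.32. These coefficients describe 8 libraries that share their normalization and, over all 8, the dorsoventral contrast that chose Hsd11b1.

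Oligodendrocyte markers were also higher dorsally, the contrast by which Hsd11b1 was chosen. By the test given below, 294 of all 13674 tested genes were called higher dorsally and 198 ventrally. All 12 oligodendrocyte markers listed were called higher dorsally. Their summed level was 956, 1210, 1240 and 1260 FPKM in the dorsal libraries and 520, 684, 678 and 679 FPKM in the ventral libraries, a 1.82-fold dorsal excess. Hsd11b1 in the same order was at 13.2, 17.4, 17.5 and 13.1 FPKM dorsally and at 8.12, 9.48, 8.01 and 9.8 FPKM ventrally. Endothelial markers, of which 0 of 8 tested were called, summed to 34.0 to 38.4 FPKM dorsally and 26.2 to 32.6 FPKM ventrally. Leptomeningeal markers went the other way, with 3 of 7 tested genes called higher ventrally and sums of 74.2 to 79.2 FPKM dorsally and 118 to 133 FPKM ventrally. Interneuron markers also had a higher sum ventrally, 231 to 301 FPKM dorsally against 308 to 398 FPKM ventrally without overlap. However, 1 of the 6 genes was called in each direction and their median log2 ratio was 0.08, so the sum does not stand for each gene. Sums of astrocyte markers overlapped between the regions (1000 to 1080 against 966 to 1040 FPKM, 0 of 8 called), as did those of microglial markers (57.1 to 64.0 against 61.1 to 74.8 FPKM, 0 of 8 called). The part of cell composition in the level of Hsd11b1 or of any other member was not tested.

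Of the 6 members that were tested, 0 were called between the regions by limma, for which a gene needed a p under 0.05 after Benjamini-Hochberg adjustment over all tested genes and a difference in mean FPKM of at least 20%. Over all 13674 tested genes 492 were called (3.60%), 294 of them higher dorsally (D>V) and 198 higher ventrally (V>D). An unadjusted p under 0.05 was found for 3 of the 6, both receptors and Tsc22d3, beside 2191 of all tested genes (16.0%). For 2 of the 6, Nr3c1 and Nr3c2, no ventral library reached the dorsal range, beside 1521 of all tested genes (11.1%) whose regions did not overlap in either direction. Mean FPKM was lower ventrally for 4 of the 6 and higher for the other 2, and their median log2 ratio of ventral to dorsal was -0.255, beside -0.005 over all tested genes. Log2 fold changes and standard errors (SE) below come from that fit, are ventral relative to dorsal on the scale of log2(FPKM + 1), and are therefore smaller than the true ratio for genes at a few FPKM.

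Nr3c1 (ENSMUSG00000024431, chr18:39410545-39519421, minus strand) encodes the glucocorticoid receptor. Its dorsal libraries held 24.1, 19.9, 21.0 and 20.6 FPKM and its ventral libraries 19.6, 18.8, 17.5 and 19.2 FPKM. Every dorsal library exceeded every ventral one, though the lowest dorsal and the highest ventral library nearly met. The means were 21.4 ± 1.88 and 18.8 ± 0.908 FPKM (SD, n = 4), with a log2 fold change of -0.18 (SE 0.07), which did not pass the test (limma, unadjusted p = 0.0344, adjusted p = 0.262).

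Nr3c2 (ENSMUSG00000031618, chr8:76899442-77245012, plus strand) encodes the mineralocorticoid receptor. It was measured at 8.29, 7.65, 8.32 and 7.98 FPKM in the dorsal libraries and at 6.15, 7.64, 6.58 and 5.51 FPKM in the ventral libraries. The dorsal libraries were tightly grouped, and the groups were kept apart by the gap between 7.65 and 7.64 FPKM alone. The means were 8.06 ± 0.315 and 6.47 ± 0.894 FPKM (SD, n = 4), and the log2 fold change of -0.29 (SE 0.09) did not pass the test (limma, unadjusted p = 0.00995, adjusted p = 0.133). Leaving out each of the 8 libraries in turn gave 1 call, that without ventral 2, which holds the highest ventral value (log2 fold change -0.36, limma adjusted p = 0.0415). Exons of Nr3c2 overlap those of Gm10649 on the opposite strand, measured at 0.553 to 1.36 FPKM, and no strand setting is stated for the counting, so reads of the 2 genes cannot be told apart there.

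Within each library Nr3c1 was 2.46 to 3.49 times as high as Nr3c2 in FPKM. On the log2 scale the ratio of the receptors was 1.54, 1.38, 1.33 and 1.37 in the dorsal libraries and 1.67, 1.30, 1.41 and 1.8 in the ventral libraries. The regions overlapped, with ventral libraries both below and above all dorsal ones. The mean was 1.41 ± 0.09 dorsally and 1.55 ± 0.23 ventrally (SD, n = 4), and the difference of 0.14 did not pass an exact two-sided permutation test (p = 0.314, 70 splits, smallest possible p = 0.0286).

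Tsc22d3 (ENSMUSG00000031431, chrX:140539528-140600659, minus strand) encodes the glucocorticoid-induced leucine zipper protein, which restrains inflammatory transcription factors. It was measured at 13.6, 19.4, 17.1 and 16.5 FPKM in the dorsal libraries and at 12.5, 13.5, 10.8 and 16.3 FPKM in the ventral libraries. Dorsal 1 lay among the ventral libraries and ventral 4 among the dorsal ones. The means were 16.6 ± 2.38 and 13.3 ± 2.33 FPKM (SD, n = 4), with a log2 fold change of -0.31 (SE 0.13) that did not pass the test (limma, unadjusted p = 0.0364, adjusted p = 0.270).

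Sgk1 (ENSMUSG00000019970, chr10:21882184-21999903, plus strand) encodes a kinase that regulates ion channels and transporters, and its promoter with the response element is shown above. It was measured at 17.6, 13.5, 28.4 and 31.4 FPKM in the dorsal libraries and at 14.8, 8.35, 17.5 and 20.9 FPKM in the ventral libraries. The libraries of 1 region ranged 2.33-fold dorsally and 2.50-fold ventrally, and the 2 regions overlapped. The means were 22.7 ± 8.56 and 15.4 ± 5.31 FPKM (SD, n = 4), and the log2 fold change of -0.53 (SE 0.30), the largest of the 6 tested members, did not pass the test (limma, unadjusted p = 0.109, adjusted p = 0.444). Activity-regulated genes, such as Fos and Arc, summed to 93.7 to 142 FPKM dorsally and 56.4 to 94.0 FPKM ventrally, with 0 of 8 called, and their part in the level of Sgk1 was not tested.

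Fkbp5 (ENSMUSG00000024222, chr17:28399094-28517527, minus strand) encodes an Hsp90 co-chaperone that lowers the affinity of the glucocorticoid receptor for its hormone. Its dorsal libraries held 1.85, 3.87, 2.29 and 3.36 FPKM and its ventral libraries 2.41, 4.42, 3.06 and 3.86 FPKM. The regions overlapped over most of their range. The means were 2.84 ± 0.930 and 3.44 ± 0.882 FPKM (SD, n = 4), and the log2 fold change of 0.22 (SE 0.19) did not pass the test (limma, adjusted p = 0.656). Its libraries separated by the letter of the column header, not by region, which was noticed after the values were seen. The 4 columns headed V held 3.36 to 4.42 FPKM and the 4 headed D 1.85 to 3.06 FPKM, and each region holds 2 columns of either letter. Between the letters, with region also in the fit, the log2 fold change was 0.53 (SE 0.10), with limma's unadjusted p = 0.000539 but an adjusted p = 0.670. The letters were picked from these same values, so the unadjusted p is a description only. Of all tested genes, 452 (3.31%) did not overlap between the letters. What the letters stand for in these columns cannot be told from the sources used here.

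Ddit4 (ENSMUSG00000020108, chr10:59949669-59951834, minus strand), which encodes an inhibitor of the growth-regulating kinase complex mTORC1, had the lowest level of the members. It was measured at 1.69, 1.47, 2.42 and 2.55 FPKM in the dorsal libraries and at 1.88, 1.81, 3.03 and 1.98 FPKM in the ventral libraries. Ventral 3 was the highest of all 8, and the other ventral libraries lay within the dorsal range. The means were 2.03 ± 0.531 and 2.17 ± 0.576 FPKM (SD, n = 4), with a log2 fold change of 0.07 (SE 0.16) that did not pass the test (limma, adjusted p = 0.891). Its sign turned without ventral 3 (-0.05) and without dorsal 2 (-0.03).

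**Figure D2:**
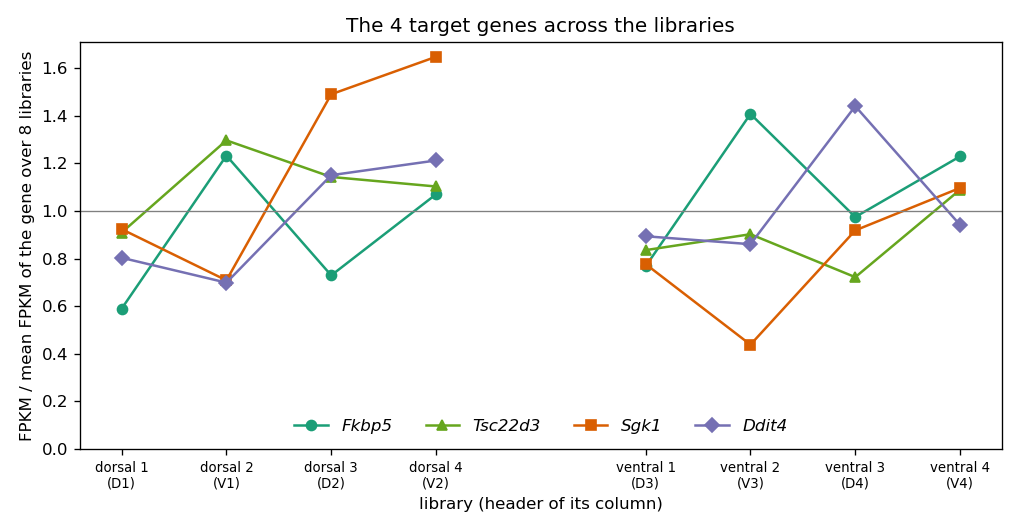
FPKM of the 4 target genes in each library divided by the gene's mean over the 8 libraries, with the column header under each library and lines joining the libraries of a region in column order only to guide the eye. Fkbp5 is high in the columns headed V in both regions, Sgk1 is lowest in dorsal 2 and ventral 2, and Ddit4 is highest in ventral 3.

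The wider pathway was described with 92 further genes in 6 lists, of which 68 were tested. Only Ndrg1 was called, higher dorsally, and 0 genes were called higher ventrally, a share of 1.47% beside 3.60% of all tested genes. An unadjusted p under 0.05 was found for 9 of the 68 (16.0% of all tested genes), and for 9 the regions did not overlap (11.1% of all tested genes). Ndrg1, whose product is phosphorylated by Sgk1 and is abundant in myelinating cells, was measured at 11.5, 13.5, 11.5 and 10.4 FPKM in the dorsal libraries and at 9.25, 8.76, 9.38 and 7.94 FPKM in the ventral libraries. Every dorsal library exceeded every ventral one. The means were 11.7 ± 1.28 and 8.83 ± 0.650 FPKM (SD, n = 4), with a log2 fold change of -0.37 (SE 0.09, limma adjusted p = 0.0455). This call stood near the threshold: it was kept without dorsal 4 (adjusted p = 0.0428), lost without any of the other libraries (up to 0.121, without dorsal 2), and lost when the libraries were rescaled to 1 total (adjusted p = 0.159). Oligodendrocyte markers, whose values are given above, were higher in the same libraries, and their part in the level of Ndrg1 was not tested.

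In steroid metabolism and transport, 5 of 11 genes were tested, and limma called 0 and gave 1 an unadjusted p under 0.05. Cyp11a1, the first enzyme of steroid synthesis, had 1.78 ± 0.281 FPKM dorsally and 1.18 ± 0.139 FPKM ventrally without overlap, but its log2 fold change of -0.34 (SE 0.11) did not pass the test (limma, adjusted p = 0.13). Abcb1a, a drug efflux pump of the blood-brain barrier that also carries corticosteroids, had 4.28 ± 0.628 and 3.62 ± 1.02 FPKM (SD, n = 4). The 2 enzymes that act directly beside Hsd11b1, named after their values were seen, were low in both regions. H6pd, which supplies its cofactor, lay between 1.40 and 1.96 FPKM, and Hsd11b2, which inactivates corticosterone, between 0.0405 and 0.358 FPKM, too low to be tested. Cyp11b1, Cyp21a1 and Serpina6, the corticosteroid-binding globulin of plasma, were listed at 0 in all libraries.

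No gene of the chaperones and coregulators that the receptors work with was called. All 14 chaperone genes and all 11 coregulator genes were tested by limma, with 1 unadjusted p under 0.05 in each list, and the log2 ratio of mean FPKM lay between -0.22 and 0.11 for chaperones and between -0.17 and 0.09 for coregulators. The largest ratios belonged to Ahsa1, an activator of Hsp90 (30.4 ± 1.44 against 26.1 ± 2.18 FPKM, limma adjusted p = 0.164), and Nrip1, a corepressor of nuclear receptors (20 ± 0.944 against 17.7 ± 0.911 FPKM, limma adjusted p = 0.225), both without overlap between the regions. Ptges3, the co-chaperone p23, had 20.1 ± 3.12 and 18.3 ± 1.58 FPKM, and the coactivator Ncoa3 9.40 ± 1.12 and 8.51 ± 0.655 FPKM (SD, n = 4).

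Of 29 other genes known as glucocorticoid targets, 22 were tested, and limma called 0 and gave 2 an unadjusted p under 0.05. Their median log2 ratio was 0.02, with a range from -0.37 to 0.36. At the lower end was Cdkn1a, an inhibitor of the cell cycle, at 10.8 ± 0.899 FPKM dorsally and 8.33 ± 0.953 FPKM ventrally without overlap (limma log2 fold change -0.34, SE 0.09, adjusted p = 0.0763). At the upper end was Sult1a1, a sulfotransferase, at 4.85 ± 1.08 and 6.22 ± 0.777 FPKM, with overlapping regions (limma adjusted p = 0.292). Of the paralogs and effectors of the members, 14 of 15 were tested and 1 was called, the Ndrg1 described above, and the next largest ratio was that of Tsc22d4, a paralog of Tsc22d3, at 9.36 ± 1.65 and 8.20 ± 1.35 FPKM (SD, n = 4).

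The peptide system that drives glucocorticoid release was mostly near the floor. Only 2 of its 12 genes were tested, and limma called 0 and gave 1 an unadjusted p under 0.05. Crhr1, the main receptor of corticotropin-releasing hormone, had 4.12 ± 0.664 FPKM dorsally and 3.15 ± 0.429 FPKM ventrally with overlap (limma adjusted p = 0.227), and Crhbp, the protein that binds the hormone, 11.4 ± 1.21 and 12.2 ± 0.861 FPKM (limma adjusted p = 0.673). Avp and Ucn were listed at 0 in all libraries.

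**Figure D3:**
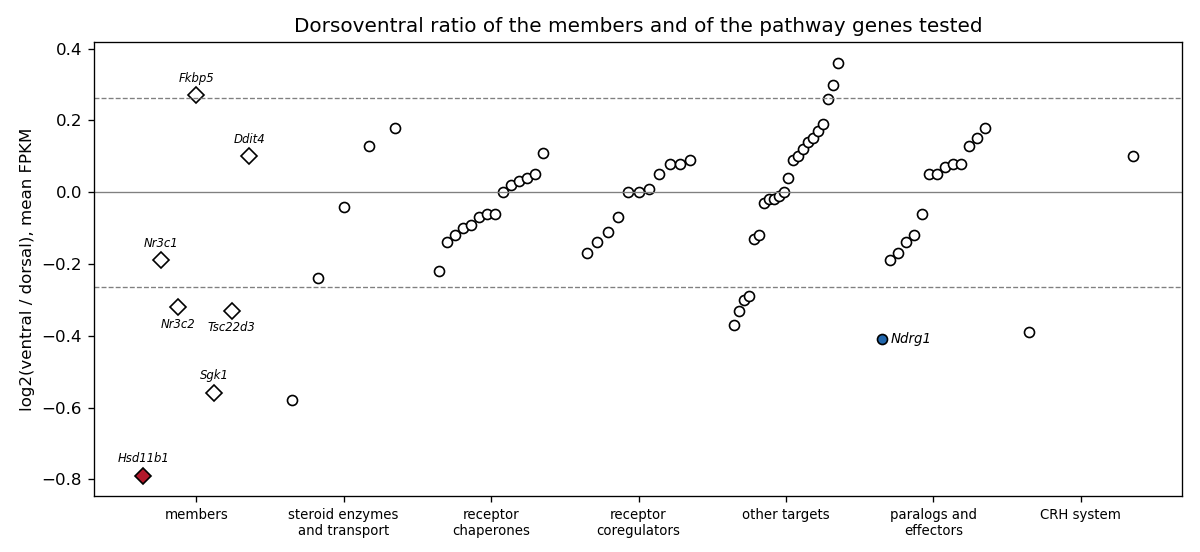
Log2 ratio of ventral to dorsal mean FPKM for the 7 members (diamonds) and for the 68 tested pathway genes in 6 lists (circles, sorted within a list), with dashed lines at the 20% threshold of 0.263 either way. The filled diamond is Hsd11b1 at -0.79, which was chosen by this ratio, and the filled circle is Ndrg1, the only gene called.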

How the data were processed

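The authors processed reads with CASAVA 1.8, aligned them with TopHat2 2.0.8 to GRCm38 with an Ensembl annotation, and obtained the deposited FPKM per gene and library from Cuffdiff, which scales libraries to each other. No fragment totals were used, so depth is not given here. The authors' deposited fold changes and p-values were not used, nor were 4 columns of per-replicate values whose rows are tied to no single sample. Genes with enough alignments and a mean of at least 1 FPKM were tested with limma 3.58.1 (R 4.3.3), with a mean-variance trend on log2(FPKM + 1). Ratios use mean FPKM. Likeness to Hsd11b1 is Pearson's r on log2(FPKM + 1). Members and lists were chosen with earlier results of these data known. Genes named are the members, called pathway genes or, where a list has fewer than 2, the 2 largest ratios of each list, and the 5 genes most like Hsd11b1 by each measure. Positions are those of GENCODE vM21, promoters those of RefSeq. Alternatives covered the constant, filters, scaling, variance model, ratio threshold, column assignment and each library left out. A block by column position and a term for the header letter were added after seeing the data. The fit was tested on simulated data. Python 3.11.15, NumPy 2.4.6, pandas 2.3.3, SciPy 1.17.1 and matplotlib 3.10.9 were used.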

Additional observations from a re-analysis of the deposited data

Results flagged for a closer look

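In 40 groups of 4 libraries, the members, the named genes of the pathway lists and the log2 ratio of the receptors in each region, the highest or lowest library was compared with the others by Dixon's test, and 2 stood apart. Ddit4 reached 3.03 FPKM in ventral 3, where the next ventral library held 1.98 FPKM. Tsc22d4 reached 11.8 FPKM in dorsal 3, where the next dorsal library held 8.78 FPKM. Chance gives about 1 such group in 20.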

How the results depend on the processing

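Of 124 log2 fold changes of the 6 tested members under the alternatives, 117 kept their direction and their side of the threshold, 5 turned direction and 2 passed the threshold. Without 1 library, D>V calls over all genes ranged from 157 to 341, V>D calls from 91 to 191, calls among the 6 tested members and among the pathway genes each from 0 to 1, and the receptor difference from 0.05 to 0.22. Rescaling to 1 total left 195 D>V genes and moved the median log2 fold change from -0.00577 to 0.0374. With no alignment filter, rescaling, quantile normalization, no trend, the headers' regions, the 4 libraries whose header and region agree, or the header letter as a term, 0 pathway genes were called. The headers' regions gave 1 D>V and 0 V>D genes, and the 4 libraries 0 and 0. Under the headers' regions the receptor difference was -0.03 (exact permutation p = 0.857), the log2 ratio of Hsd11b1 0.09, and the log2 fold changes of Tsc22d3, Ddit4, Cyp11a1, Abcb1a, Nrip1, Cdkn1a and Crhbp 0.27, -0.13, 0.10, 0.20, 0.03, 0.01 and -0.14. Without 1 library, the log2 fold change of Ddit4 ranged from -0.05 to 0.15. With the 4 libraries, those of Ddit4 and Crhbp were -0.07 and -0.05. As assigned above, the columns under each header letter come from both regions in equal number, so the headers' regions cannot show a regional difference. The cause of the other changes was not tested.

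The labels pair no libraries, and column positions shared between the regions were checked as a hint only. Deviations of libraries at the same position correlated at -0.00499 to 0.139, and 3 of 8 libraries correlated best with their own position. The replicate block by column position gave 1 call among the 6 members, Sgk1 (limma adjusted p = 0.0220), 2 among the pathway genes, and 342 D>V and 235 V>D genes in all. FPKM without fragment totals limits what can be said of Fkbp5, Ddit4 and H6pd.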

Other observations

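The order of the libraries by column position was the same in both regions for 2 of the 7 members, Fkbp5 and Sgk1, and for 910 of the 13674 tested genes (6.65%), which was noticed after the values were seen. The header letters alternate with column position in both regions, so a difference between letters is also one between positions. For Fkbp5 the shared order and the separation by letter are thus not separate observations. The letters of the column headers also separated 2 of the 22 other targets tested, both higher under the letter V. Over all tested genes the letters separated 452 (3.31%), 194 of them higher under V. Hif3a, a hypoxia-inducible factor subunit, held 1.28 to 2.18 FPKM under D and 2.38 to 3.08 FPKM under V. Mertk, a phagocytic receptor kinase, held 12.2 to 13.3 FPKM under D and 15.0 to 22.4 FPKM under V. For 5 of the 22 targets limma gave an unadjusted p under 0.05 between the letters. Of these, Hif3a, Mertk and Sult1a1 were higher under V, whereas Dusp1 (log2 fold change -0.45) and Per1 (-0.21) were lower. Of 8 activity-regulated genes, limma gave 5 an unadjusted p under 0.05 between the letters, all lower under V. Without overlap, the letters separated 2 of the 8, both lower under V. Nr4a1 held 10.1 to 15.3 FPKM under D and 5.93 to 8.42 FPKM under V, and Fosb held 1.47 to 2.47 FPKM under D and 1.12 to 1.42 FPKM under V. By limma, 1 of all tested genes was called between the letters and 961 had an unadjusted p under 0.05, beside 0 called among these genes.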
